A study of Mus musculus with 4 samples.

Results

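The 34 genes described here encode the clotting factors, their inhibitors, the fibrinolytic enzymes and the enzymes of the vitamin K cycle. They were taken by gene symbol from the authors' deposited table, and all 34 were on the array, with 53 probes of the 41174 non-control probes in all. Of these 53 probes, 52 were measured well enough to be tested. The probe left out is 1 of 3 for Plat, the gene of tissue plasminogen activator, which was not well above background on any array. Of the 34 genes, 21 had 1 tested probe and 13 had several, and each probe was tested by itself.

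Liver RNA came from 4 male Wrn mutant mice and 4 male wild-type mice, all C57Bl/6 and 3 months of age and kept on a reversed light cycle. Wrn encodes a RecQ-type DNA helicase, and the labels name no allele. The mutants had drunk water with 0.4% vitamin C since weaning, and the wild-type mice were untreated. Each of the 4 two-colour Agilent arrays carried the RNA of 1 mutant in Cy5 and 1 wild-type mouse in Cy3. No array had the dyes swapped, so the mutation, the treatment and the dye cannot be told apart in any ratio. All ratios below are log2 of mutant over wild type, given as mean ± SD over the 4 arrays. Adjusted p-values come from limma with Benjamini-Hochberg adjustment over the 39083 probes tested, with 0.05 as the threshold. Levels are log2 intensities of each channel after normalization, which are open to dye bias. They serve to compare the groups at 1 probe, not probes with each other. Each array holds 1 animal of each group, so the spread of levels within a group mixes animal and array. Levels summed over a list are weighted toward its brightest probes.

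The arrays stood close to each other in quality except that array 1 had fewer probes well above background, 82.8% in the mutant channel and 84.5% in the wild-type channel, against 94.5% to 96.2% on the others. Of the 3 tested Wrn probes, 1 was higher at 0.41 ± 0.10 (adjusted p = 0.0118), and the others were at 0.00 ± 0.02 and -0.07 ± 0.06. The labels do not say which exons the mutation alters, so these probes do not check the genotype. The hepatocyte markers were bright in wild-type liver, with mean log2 levels from 15.13 to 17.56 on 11 probes.

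Clotting is a chain of serine proteases that ends in thrombin, which cuts fibrinogen into fibrin. The tissue factor pathway starts it with factor VII, the contact pathway with factor XII, and the nonenzymatic cofactors V and VIII speed up the steps that make factor Xa and thrombin. Antithrombin, tissue factor pathway inhibitor and the protein C system restrain the chain, and plasmin dissolves the clot. Hepatocytes make most of these proteins, whereas factor VIII and von Willebrand factor come mainly from endothelial cells, and several zymogens need vitamin K for the carboxylation of their glutamates.

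Of the 52 tested probes, 8 (15.4%) were lower in the mutant and 3 (5.77%) were higher, and 41 did not pass. Among all tested probes 6.80% were lower and 6.19% higher, so the share of higher members was near the background and the share of lower members above it, a difference that was not tested. By gene, 7 of 34 had a lower probe and 3 a higher one, against a background of 10.2% and 9.33% of genes, and 24 had neither. The median ratio was -0.05 over the members and 0.00 over all tested probes. The ratio kept 1 sign on all arrays for 19 probes (36.5%), 14 of them negative, where the background was 40.5%. The 4 mutant and 4 wild-type levels did not overlap for 10 probes (19.2%), against 7.18% of all tested probes. The loess step removes any trend of the ratio with brightness, whatever its source. With median centring in its place, 19 member probes were higher and 6 lower. The calls over all probes moved with it, from 2421 higher and 2657 lower (47.7% higher) to 4292 higher and 3011 lower (58.8% higher).

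**Figure D1:**
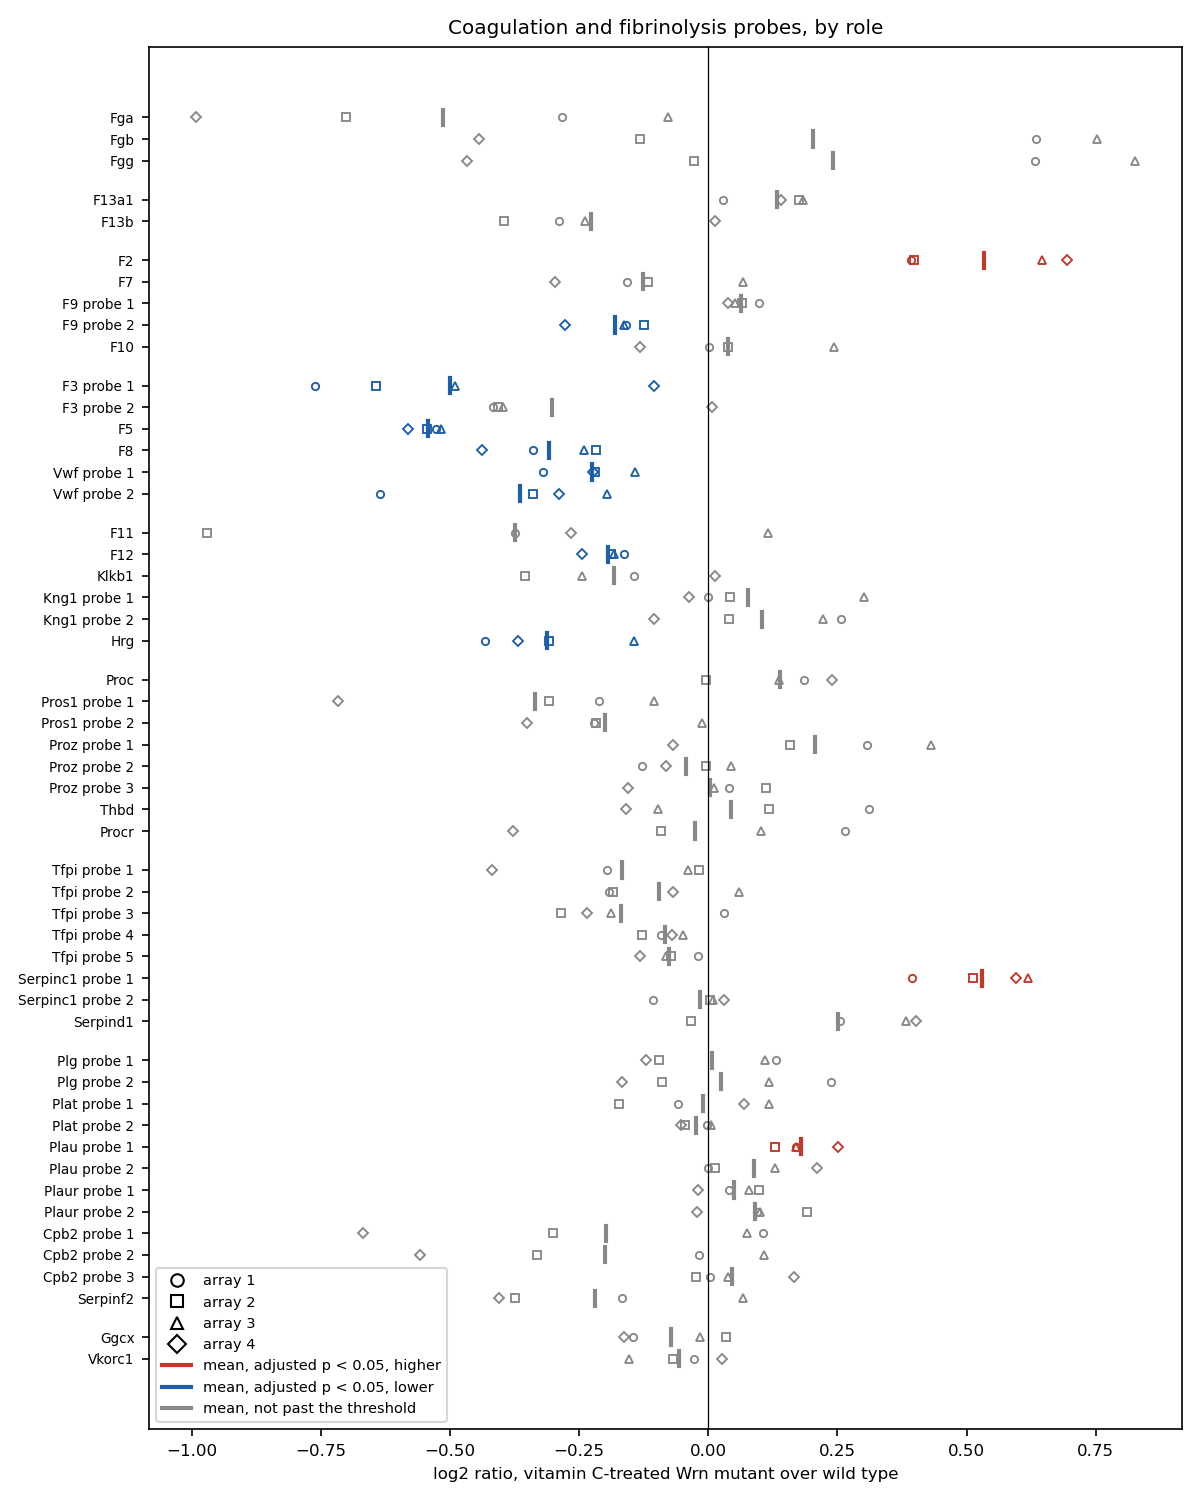
Each line is 1 of the 52 tested probes, grouped by role from fibrinogen at the top to the vitamin K cycle at the bottom, with the log2 ratio of mutant over wild type on the horizontal axis. Symbols are the 4 arrays, bars are their mean, colour marks an adjusted p under 0.05, and the probes of a gene are numbered from the brightest. Of the 6 cofactor probes, 5 are blue and all 6 means lie below 0, whereas the fibrinogen symbols spread from -0.99 to 0.83.

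The cofactor group was the one in which every gene had a lower probe. Tissue factor (F3), factor V (F5), factor VIII (F8) and von Willebrand factor (Vwf), which carries factor VIII in plasma, had 5 of 6 probes past the threshold, all lower. The background of lower probes was 6.80%, and the 6 cofactor probes had a median ratio of -0.34. The 5 of 6 was not tested against that background, and the roles were chosen with earlier results of these data known. Other cofactors, such as protein S (Pros1), were placed in other roles, and no Pros1 probe passed. The 60-base probes of F5 and F8 and a Vwf probe are shown as the sequences that these measurements rest on, in lower case as deposited on the array design.
F5 probe: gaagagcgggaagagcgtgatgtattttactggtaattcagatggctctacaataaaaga
F8 probe: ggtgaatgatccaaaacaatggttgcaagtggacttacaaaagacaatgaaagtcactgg
Vwf probe: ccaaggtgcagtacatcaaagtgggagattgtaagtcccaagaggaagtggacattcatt

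Factor V, the cofactor of factor Xa, had the lowest adjusted p of all members. The F5 ratios were -0.53, -0.54, -0.52 and -0.58 on arrays 1 to 4. The mean was -0.54 ± 0.03, a level 1.46-fold lower in the mutant (adjusted p = 0.00497). Mutant F5 levels were 13.22, 13.50, 13.67 and 13.54, and wild-type levels were 13.74, 14.04, 14.18 and 14.12. Every mutant level lay below every wild-type level. The ratio varied less between arrays than the levels did within a group, where animal and array cannot be separated.

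Factor VIII is the cofactor of factor IXa. The F8 ratios were -0.34, -0.22, -0.24 and -0.44, with a mean of -0.31 ± 0.10 (adjusted p = 0.0201). Its mutant levels were 9.98, 9.82, 9.90 and 9.91, against 10.32, 10.04, 10.14 and 10.35 in wild type, with no overlap. F8 lost its call with Agilent's own dye-normalized signals (-0.25, adjusted p = 0.0763) and without array 1, 2 or 4. The brighter Vwf probe (A_51_P103397) had ratios of -0.32, -0.22, -0.14 and -0.22 and a mean of -0.23 ± 0.07 (adjusted p = 0.0302). The dimmer one (A_51_P103406), whose sequence is shown, had ratios of -0.64, -0.34, -0.20 and -0.29 and a mean of -0.37 ± 0.19 (adjusted p = 0.0290). Both Vwf probes were thus negative on all 4 arrays, and Vwf was the only member with several probes of which every one passed. The brighter Vwf probe lost its call with median centring (-0.15, adjusted p = 0.113) and without any 1 array (adjusted p 0.0504 or above). The dimmer lost it with Agilent's own dye-normalized signals (-0.44, adjusted p = 0.128) and without array 1, 2 or 4.

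At the dimmer Vwf probe the mutant levels were 8.27, 8.67, 8.71 and 8.74 and the wild-type levels 8.91, 9.01, 8.90 and 9.03. The groups did not overlap there, and the mutant of array 1 was the lowest. At the brighter probe the mutant levels were 11.72, 11.53, 11.54 and 11.50 and the wild-type levels 12.04, 11.75, 11.68 and 11.72, so that the mutant of array 1 reached the wild-type range.

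Tissue factor, the membrane receptor of factor VII, was also lower. The F3 probe A_51_P236846 had ratios of -0.76, -0.64, -0.49 and -0.10 and a mean of -0.50 ± 0.29 (adjusted p = 0.0293). Its mutant levels were 9.12, 9.29, 9.41 and 9.59 and its wild-type levels 9.88, 9.93, 9.91 and 9.69. The groups did not overlap, but on array 4 they came within 0.10 of each other. This F3 call was lost with Agilent's signals (-0.40, adjusted p = 0.159) and without array 1, 2 or 3. The other F3 probe (A_52_P683413) had ratios of -0.42, -0.41, -0.40 and 0.01, with a mean of -0.30 ± 0.21 that missed the threshold (adjusted p = 0.0504) and passed it with median centring (-0.30, adjusted p = 0.0454). Array 4 thus gave the smallest F3 difference on both probes.

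The cofactor means were negative under each of the 18 alternatives, including median centring. This held for all 6 probes or, where 1 value stood for a gene, for all 4 genes. The alternatives in threshold, filter, moderation and pairing, and the brightest probe of a gene, leave the mean of a probe unchanged. They could therefore not turn its sign. The number past the threshold fell to between 1 and 3 when 1 array was left out, with 1 without array 1 and 1 without array 2, to 3 with Agilent's own dye-normalized signals, and to 0 when the pairing of channels on an array was not modelled. F5 kept its call under every alternative but that last one (adjusted p = 0.237).

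Because F8 and Vwf are endothelial products, the endothelial marker lists were read beside them. In bulk tissue, fewer cells of a type and less RNA per cell cannot be told apart. Of 17 probes of sinusoidal endothelial markers 4 were lower and 0 higher, among them Kdr, a receptor of vascular endothelial growth factor, at -0.24 ± 0.09 (adjusted p = 0.0301) and Clec4g, a sinusoidal lectin, at -0.35 ± 0.20 (adjusted p = 0.0338). The 1 other Kdr probe was at 0.08 and the other Clec4g probes were at 0.11 and 0.04. Of 10 probes of vascular endothelial markers 2 were lower and 0 higher, namely Tie1 at -0.30 ± 0.15 (adjusted p = 0.0310) and Egfl7 at -0.20 ± 0.08 (adjusted p = 0.0442).

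Summed over the list, the log2 level of the sinusoidal markers lay between 15.96 and 16.05 in the mutants and between 16.12 and 16.40 in wild type. The vascular sum lay between 14.00 and 14.09 in the mutants and between 14.13 and 14.25 in wild type. Of these probes 16 of 17 and 9 of 10 were well above background in both channels of all arrays, and the part of endothelial content in the F8 and Vwf results was not tested. With median centring 1 of the 17 sinusoidal probes and 1 of the 10 vascular probes were lower. With Agilent's signals 0 and 1 were lower by limma, with 5 and 3 lower at an unadjusted p under 0.05. With the mean of the probes of a gene, 0 of 8 sinusoidal genes and 2 of 7 vascular genes were lower by limma. At an unadjusted p under 0.05 these were 2 and 3. Without array 1, 0 of both lists passed by limma, with 7 sinusoidal and 4 vascular probes lower at an unadjusted p under 0.05, and without array 2 also 0, with 8 and 4. The platelet list, whose cells also hold Vwf, had 1 higher probe of 8 and 0 lower. That probe was of Itgb3, an integrin subunit, at 0.44 ± 0.04 (adjusted p = 0.00809), and the other Itgb3 probe was at -0.14. This Itgb3 call was lost without array 2 (adjusted p = 0.0514). The summed platelet level lay between 13.39 and 13.63 in the mutants and between 13.21 and 13.43 in wild type.

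**Figure D2:**
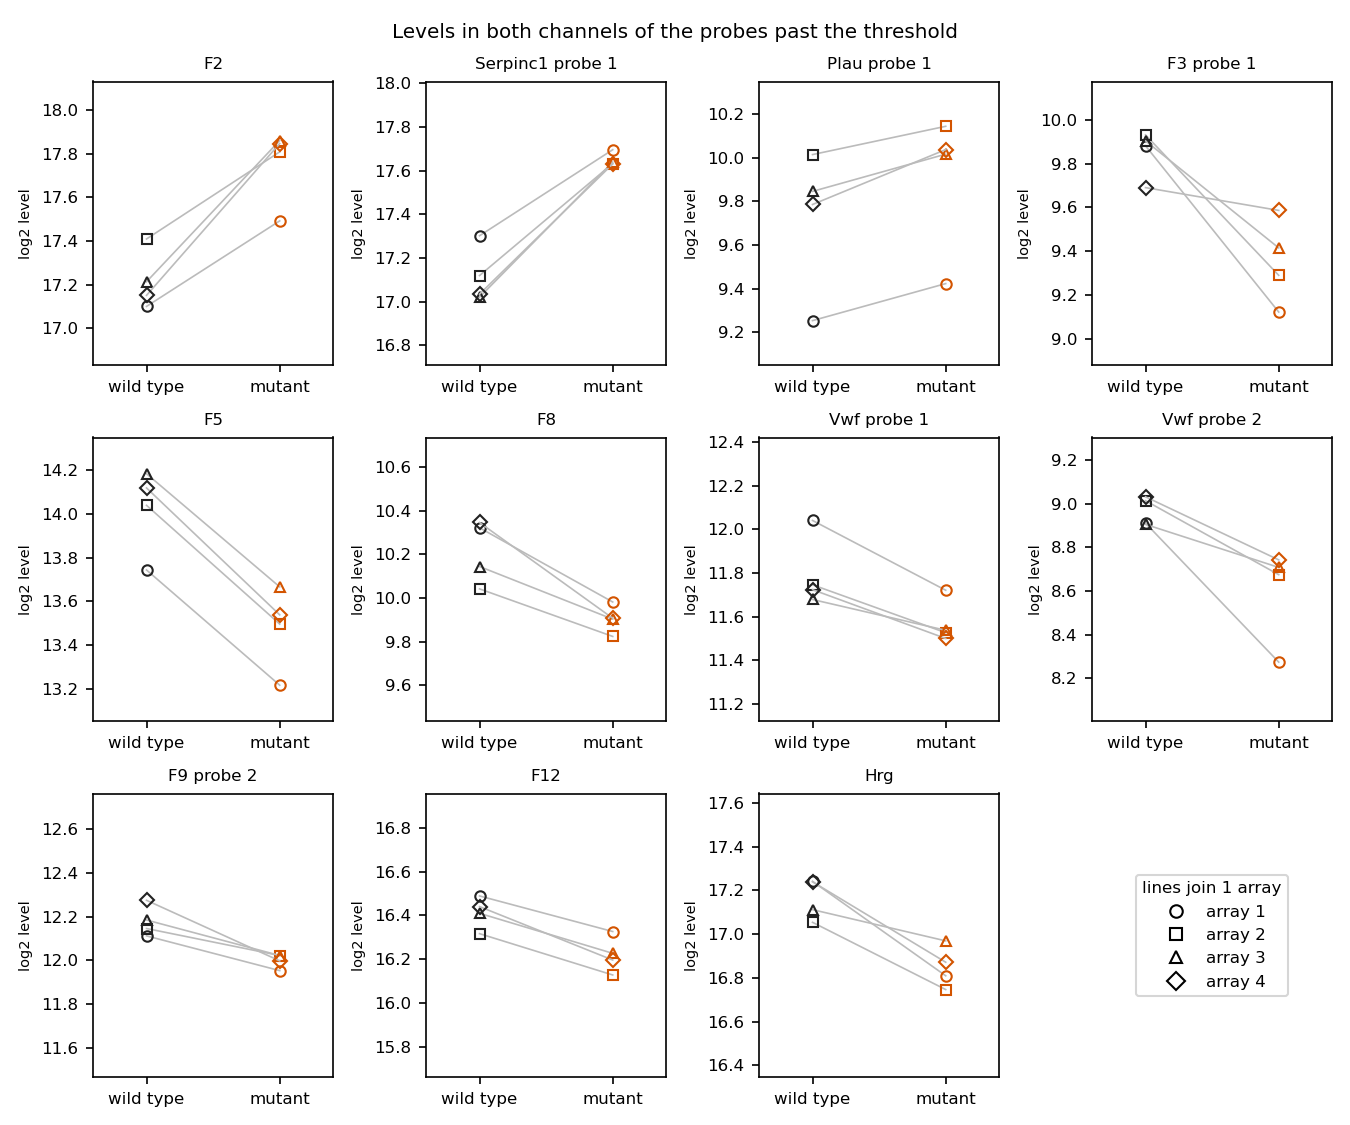
The 11 member probes past the threshold are shown with the log2 level of each channel on the vertical axis, wild type on the left and mutant on the right. Lines join the channels of 1 array, each panel spans the same height, and F5, F8 and F2 are among the probes whose 4 mutant and 4 wild-type levels do not overlap.

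Among the vitamin K-dependent zymogens, 1 of 5 probes was higher and 1 lower. Prothrombin (F2), the precursor of thrombin, was higher. The F2 ratios were 0.39, 0.40, 0.65 and 0.70, and the mean was 0.53 ± 0.16, a level 1.45-fold higher in the mutant (adjusted p = 0.0118). Mutant F2 levels were 17.49, 17.81, 17.86 and 17.85 and wild-type levels were 17.10, 17.41, 17.21 and 17.15. All mutant levels lay above all wild-type levels, with a gap of less than 0.1 between the lowest mutant and the highest wild-type animal. The F2 ratio was 1.15 with median centring, and it lost its call without array 2 (0.58, adjusted p = 0.0532) and with Agilent's own dye-normalized signals (0.34, adjusted p = 0.104).

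Factor IX, the protease that works with factor VIII, gave probes that disagreed. The F9 probe A_52_P606233 had ratios of -0.16, -0.12, -0.16 and -0.28 and a mean of -0.18 ± 0.07 (adjusted p = 0.0481), whereas A_51_P156291 was at 0.06 ± 0.03 (adjusted p = 0.334). At the first probe the mutant levels, 11.95, 12.02, 12.02 and 12.00, lay below the wild-type levels of 12.11, 12.15, 12.18 and 12.27. This F9 call was lost when any 1 array was left out, with the authors' deposited log2 ratios (adjusted p = 0.0622) and with the mean of both probes at -0.06. It was also lost with median centring (-0.09, adjusted p = 0.192) and with Agilent's own dye-normalized signals (-0.07, adjusted p = 0.510). Factor VII, the partner of tissue factor, was at -0.13 ± 0.15 (adjusted p = 0.219) and factor X at 0.04 ± 0.16 (adjusted p = 0.726), and F10 was at 0.60 with median centring and passed.

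Fibrinogen is made of 3 chains, encoded by Fga, Fgb and Fgg, which lie next to each other on chromosome 3. None of the 3 probes passed, but their ratios moved together from array to array, and so the values and the promoters are given in full. The Fga ratios were -0.28, -0.70, -0.08 and -0.99, with a mean of -0.51 ± 0.41 (adjusted p = 0.0562). The Fgb ratios were 0.64, -0.13, 0.75 and -0.44, with a mean of 0.20 ± 0.58 (adjusted p = 0.512). The Fgg ratios were 0.63, -0.03, 0.83 and -0.47, with a mean of 0.24 ± 0.60 (adjusted p = 0.444). In each chain arrays 1 and 3 had the higher ratios and arrays 2 and 4 the lower ones. The same order was seen in 16 of the 52 member probes (30.8%), Cpb2, Serpinf2 and Plg among them, and in 14.8% of 38930 probes measured on all arrays, so it is not particular to fibrinogen. Array 4 gave the lowest ratio for 29 of the 52 (55.8%), against 25% of those probes.

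Fgg differed from Fgb by 0.00, 0.10, 0.07 and -0.02 on arrays 1 to 4, which is far less than the spread of either between arrays. Fgb exceeded Fga by 0.92, 0.57, 0.83 and 0.55 on the same arrays, so the Fga probe sat lower on every one. Fgb spanned 0.79 among the wild-type animals and 0.41 among the mutants. Wild-type Fgb levels were 17.60, 18.10, 17.49 and 18.28, and mutant levels were 18.24, 17.97, 18.25 and 17.83. Wild-type Fgg levels were 17.61, 17.88, 17.30 and 18.24, and mutant levels were 18.25, 17.86, 18.13 and 17.77. For both chains the groups overlapped, and the wild-type animal of array 4 was the highest of its group.

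Fga levels were 16.31, 16.02, 16.48 and 16.43 in the mutants and 16.59, 16.72, 16.55 and 17.42 in wild type. They did not overlap, and the wild-type animal of array 4 stood apart at 17.42, with the next at 16.72. Fga passed the threshold without array 3 (-0.66, adjusted p = 0.0425), with Agilent's signals (-0.71, adjusted p = 0.0386) and with array weights (-0.53, adjusted p = 0.0499), and was at 0.00 with median centring. Under that setting Fgb was at 0.89 and Fgg at 0.91, and both passed.

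**Figure D3:**
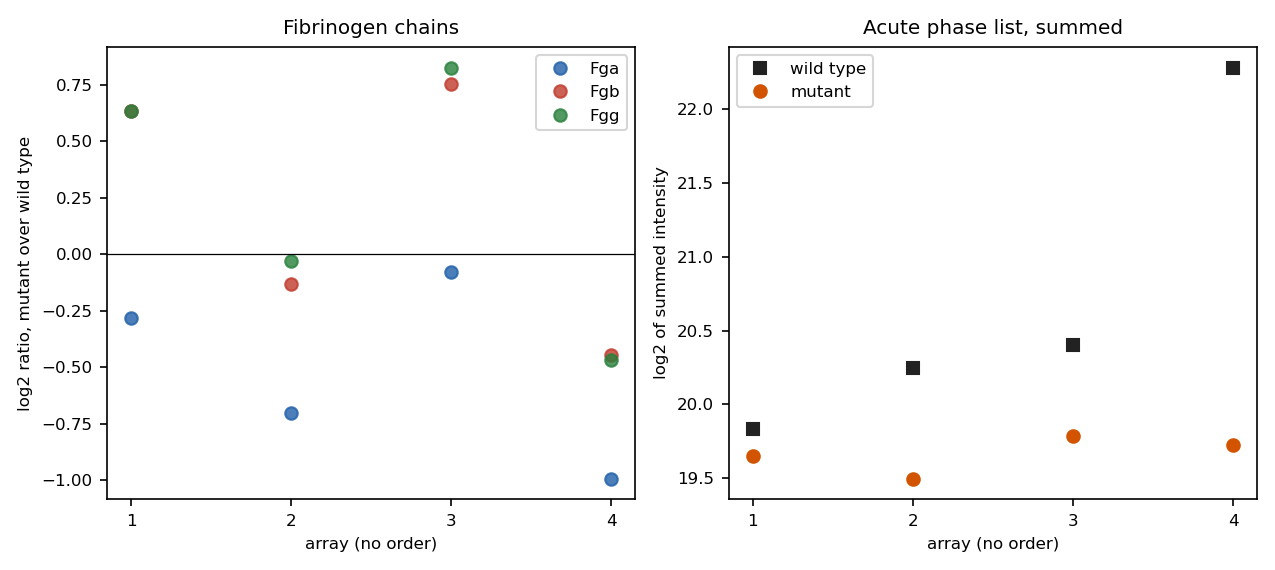
The left panel plots the log2 ratio of the 3 fibrinogen chains on each array, and the right panel plots the log2 of the summed intensity of the 20 acute phase probes in each channel. Fgb and Fgg lie within 0.10 of each other on every array, Fga lies below both, and the wild-type animal of array 4 stands highest in the acute phase sum at 22.28.

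Fibrinogen is itself an acute phase protein, so the acute phase list was read beside it. Of its 20 probes 7 were lower and 0 higher, with a median ratio of -0.64. The lower probes were of 5 of the 17 genes, mostly of the serum amyloid A family. Saa1 was at -2.72 ± 1.16 (adjusted p = 0.0144) and Saa3 at -2.65 ± 1.30 (adjusted p = 0.0182), both serum amyloid A proteins. The summed log2 level of the list was 19.65, 19.50, 19.78 and 19.73 in the mutants and 19.83, 20.25, 20.40 and 22.28 in wild type. The wild-type animal of array 4, with the highest Fga, Fgb and Fgg, was the highest there too. The part of the acute phase state in the fibrinogen values was not tested. Without array 4 the median of the list was -0.25, with 5 probes lower, and without array 2, 0 passed by limma, with 8 lower at an unadjusted p under 0.05.

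The 250 bases before the start of each fibrinogen gene, from RefSeq on GRCm38.p6, are printed because these genes moved together. Capitals mark the letters CTGGGA, the core of the interleukin 6 response element of fibrinogen genes, and GTTAAT, a partial HNF1 site, on either strand.
Fga, chr3:83025903-83026152, plus strand: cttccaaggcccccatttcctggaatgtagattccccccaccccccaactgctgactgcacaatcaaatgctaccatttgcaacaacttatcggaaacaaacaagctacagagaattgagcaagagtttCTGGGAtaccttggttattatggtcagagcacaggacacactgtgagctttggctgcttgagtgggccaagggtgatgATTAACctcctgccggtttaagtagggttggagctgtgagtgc
Fgb, chr3:83049864-83050113, minus strand: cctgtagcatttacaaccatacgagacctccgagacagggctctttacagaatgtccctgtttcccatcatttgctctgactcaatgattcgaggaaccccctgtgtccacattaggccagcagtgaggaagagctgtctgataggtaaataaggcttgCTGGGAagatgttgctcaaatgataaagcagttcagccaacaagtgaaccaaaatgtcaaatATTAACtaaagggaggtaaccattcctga
Fgg, chr3:83007474-83007723, plus strand: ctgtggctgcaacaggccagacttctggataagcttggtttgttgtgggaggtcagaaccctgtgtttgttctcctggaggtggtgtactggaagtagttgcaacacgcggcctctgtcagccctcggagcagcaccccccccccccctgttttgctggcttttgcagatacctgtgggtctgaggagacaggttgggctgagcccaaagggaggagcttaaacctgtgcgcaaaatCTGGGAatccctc

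CTGGGA was found in all 3, at bases 121 to 116 before the start of Fga, 91 to 86 of Fgb and 13 to 8 of Fgg. It is a common string, present in 27.0% of 32851 promoters of the same length and in 11 of the 27 members that have a promoter sequence. GTTAAT was found at bases 43 to 38 of Fga and 29 to 24 of Fgb, in 6.43% of all promoters and in 4 of the 27 members. Both strands were also searched for TTGCNNAA, a C/EBP-like string, and TTCNNNGAA, a STAT-like string, and each was found in Fga and Fgb, against 9.56% and 7.02% of all promoters and 9 and 4 of the 27 members. CAAAGTCC, a form of the HNF4 site, was in 0 of the 27 and in 1.2% of all. None of the matches in these 3 promoters overlapped another.

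Fibrin is cross-linked by factor XIII. Its catalytic subunit F13a1, made mainly by cells of the blood lineage, was at 0.13 ± 0.07 (adjusted p = 0.104). Its carrier subunit F13b, made by hepatocytes, was at -0.23 ± 0.17 (adjusted p = 0.0740), and neither passed.

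In the contact system, grouped here with histidine-rich glycoprotein, 2 of 6 probes were lower. Factor XII (F12), which starts the contact pathway, had ratios of -0.16, -0.19, -0.18 and -0.24 and a mean of -0.20 ± 0.04 (adjusted p = 0.0325). Its mutant levels were 16.33, 16.13, 16.23 and 16.20 and its wild-type levels 16.49, 16.32, 16.41 and 16.44, which overlapped slightly between animals of different arrays. Histidine-rich glycoprotein (Hrg), a plasma protein that binds heparin and plasminogen, had ratios of -0.43, -0.31, -0.14 and -0.37 and a mean of -0.31 ± 0.12 (adjusted p = 0.0237). Its mutant levels of 16.81, 16.75, 16.97 and 16.87 lay below the wild-type levels of 17.24, 17.05, 17.11 and 17.24. Both of these bright probes turned with median centring, F12 to 0.28 (adjusted p = 0.0273) and Hrg to 0.25 (adjusted p = 0.0779). F12 lost its call without any 1 array, and Hrg without array 1, 2 or 4. The F12 call was also lost with Agilent's own dye-normalized signals (-0.25, adjusted p = 0.069).

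The other contact genes did not pass. Factor XI (F11), the zymogen that factor XIIa activates, had ratios of -0.38, -0.97, 0.11 and -0.27 and a mean of -0.37 ± 0.45 (adjusted p = 0.144). Prekallikrein (Klkb1), its neighbour on chromosome 8, was at -0.18 ± 0.16 (adjusted p = 0.106). The 2 probes of kininogen (Kng1), the source of bradykinin, were at 0.08 and 0.10, and at 0.64 and 0.51 with median centring, where both passed.

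None of the 8 probes of the protein C and protein Z system passed. Protein S (Pros1), the cofactor of activated protein C, was nearest, with ratios of -0.21, -0.31, -0.11 and -0.72 and a mean of -0.34 ± 0.27 on its brighter probe (adjusted p = 0.0634). The dimmer Pros1 probe was at -0.20 ± 0.14 (adjusted p = 0.0738), and both were negative on all 4 arrays. Protein C (Proc) was at 0.14 ± 0.10 (adjusted p = 0.123), thrombomodulin (Thbd) at 0.04 and the protein C receptor Procr at -0.03. The 3 probes of protein Z (Proz) were between -0.04 and 0.21. With median centring Proc was at 0.73 and the brightest Proz probe at 0.71, and both passed.

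Antithrombin (Serpinc1), the main inhibitor of thrombin and factor Xa, was higher on 1 of its 2 probes. Probe A_52_P409746 had ratios of 0.39, 0.51, 0.62 and 0.60 and a mean of 0.53 ± 0.10, 1.44-fold higher in the mutant (adjusted p = 0.00809). Mutant levels were 17.70, 17.63, 17.64 and 17.63 and wild-type levels were 17.30, 17.12, 17.02 and 17.03, with no overlap. Probe A_51_P314375 had ratios of -0.11, 0.00, 0.01 and 0.03 and a mean of -0.02 ± 0.06 (adjusted p = 0.833). The first probe exceeded the second by 0.50, 0.51, 0.61 and 0.57, the widest disagreement between probes of 1 member.

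The mean of both Serpinc1 probes was 0.26 (adjusted p = 0.0274). With median centring the brighter probe was at 1.13 and the dimmer at 0.33 (adjusted p = 0.0280), and the call on the brighter was lost without array 2 (0.54, adjusted p = 0.0514). Heparin cofactor II (Serpind1), another thrombin inhibitor, was at 0.25 ± 0.20 (adjusted p = 0.0740), and at 0.78 with median centring, where it passed. Tissue factor pathway inhibitor (Tfpi), which blocks factor Xa and the tissue factor complex, had 5 probes between -0.17 and -0.08, and none passed (adjusted p from 0.107 to 0.279). With median centring the Tfpi probe A_52_P191353 was lower at -0.21 (adjusted p = 0.0325).

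In fibrinolysis 1 of 12 tested probes was higher and 0 lower. Urokinase (Plau), an activator of plasminogen, had ratios of 0.17, 0.13, 0.17 and 0.25 on probe A_52_P302433 and a mean of 0.18 ± 0.05 (adjusted p = 0.0429). Its mutant levels were 9.42, 10.14, 10.02 and 10.04 and its wild-type levels 9.25, 10.01, 9.85 and 9.79, which overlapped. The other Plau probe was at 0.09 ± 0.10 (adjusted p = 0.284). The Plau call was lost without any 1 array and with the authors' deposited log2 ratios (0.19, adjusted p = 0.0506). It was also lost with Agilent's own dye-normalized signals (0.14, adjusted p = 0.193) and with the mean of both probes (0.13, adjusted p = 0.0927).

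Plasminogen (Plg), the zymogen of plasmin, was at 0.01 and 0.02 on its probes, tissue plasminogen activator (Plat) at -0.01 and -0.02, and the urokinase receptor (Plaur) at 0.05 and 0.09. The plasmin inhibitor Serpinf2 had ratios of -0.17, -0.37, 0.07 and -0.41 and a mean of -0.22 ± 0.22 (adjusted p = 0.119). The carboxypeptidase Cpb2, which protects fibrin from plasmin, was at -0.20, -0.20 and 0.05 on its probes. With median centring Serpinf2 was at 0.25 (adjusted p = 0.0359), the brightest Cpb2 probe at 0.31 (adjusted p = 0.0367) and both Plg probes at 0.58, and all passed.

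In the vitamin K cycle, the carboxylase Ggcx was at -0.07 ± 0.10 (adjusted p = 0.369) and the reductase Vkorc1 at -0.06 ± 0.08 (adjusted p = 0.455). Neither passed, and Vkorc1 was at 0.43 with median centring (adjusted p = 0.0188). Over all roles, the 41 probes that did not pass had mean ratios from -0.51 to 0.25, and 21 of them lay within 0.1 of 0.

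**Figure D4:**
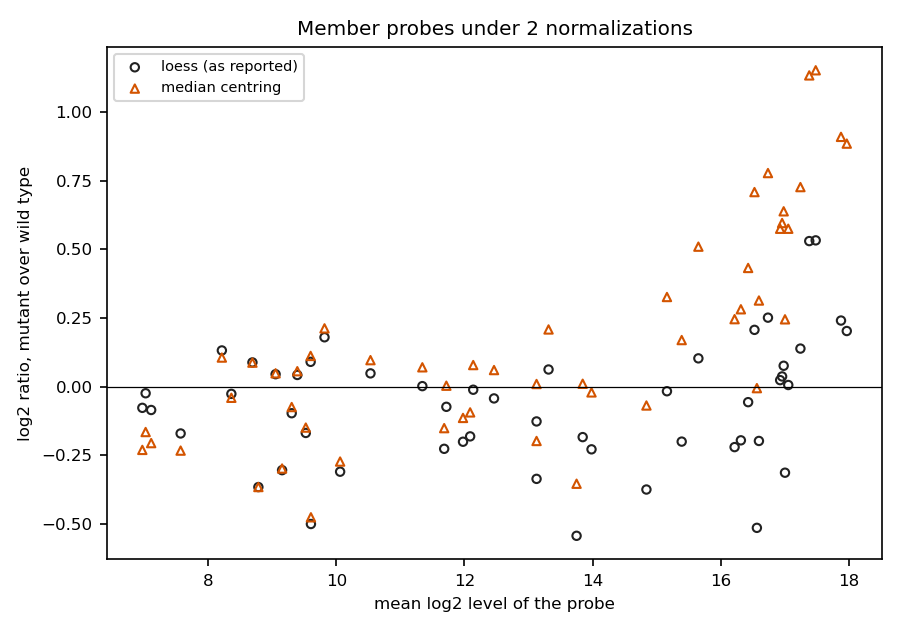
Each of the 52 tested probes is plotted at its mean log2 level (horizontal axis) and its log2 ratio (vertical axis), as a circle after loess and as a triangle after median centring. The probes reach from 6.97 to 17.97 in level, and circle and triangle lie apart for bright probes such as F2, at 0.53 and 1.15.

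Further genes of the pathway were taken from a list of 24 with 37 tested probes, of which 3 were higher and 6 lower. S100a10, a partner of annexin A2 in binding plasminogen, had ratios of 0.53, 0.77, 0.80 and 0.77 and a mean of 0.72 ± 0.12 (adjusted p = 0.00545). Apoh, or beta-2-glycoprotein I, a phospholipid-binding plasma protein, was at 0.53 ± 0.08 (adjusted p = 0.00702). Masp1, a protease of the lectin pathway that also acts on clotting proteins, was lower on 3 of 4 probes, led by -0.28 ± 0.14 (adjusted p = 0.0334), with the last at 0.01.

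The 6 lower probes fell to 1, 0, 3 and 1 without array 1, 2, 3 and 4 (limma, with 8 at an unadjusted p under 0.05 without array 2) and to 1 with Agilent's signals. With median centring 7 of the 37 were higher and 1 lower, the leading Masp1 probe was at -0.01 and Apoh at 1.15, while S100a10 was at 0.99. S100a10 and Apoh kept their calls without any 1 array, and the leading Masp1 probe lost its call without array 1, 2 or 4.

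Of 19 probes of 12 hepatic transcription factors 6 were lower and 0 higher, led by Cebpa at -0.41 ± 0.13 (adjusted p = 0.0145) and Hnf4a at -0.25 ± 0.10 (adjusted p = 0.0288), factors that drive many clotting genes in hepatocytes. The lower probes numbered 2, 0, 2 and 1 without array 1, 2, 3 and 4, and 0 with Agilent's signals (limma, with 7 lower without array 2 and 6 with those signals at an unadjusted p under 0.05). The other Cebpa probe was at 0.15, and the other Hnf4a probes were at -0.15 and -0.01. With median centring 1 was higher and 2 lower, and neither Cebpa (-0.20, adjusted p = 0.0966) nor Hnf4a (-0.12, adjusted p = 0.245) passed. Of 11 hepatocyte marker probes 4 were higher and 0 lower, with Apoa2 at 0.84 ± 0.18 (adjusted p = 0.00621) and Alb at 0.85 ± 0.21 (adjusted p = 0.00733). Their summed log2 level lay between 20.55 and 20.62 in the mutants and between 20.02 and 20.38 in wild type, and its part in the F2 and Serpinc1 values was not tested. Of the 11 ratios 8 were positive. With median centring 9 of the 11 were higher. The higher probes numbered 3, 2, 2 and 4 without array 1, 2, 3 and 4, and 2 with Agilent's signals. By limma 0 were lower in these settings. At an unadjusted p under 0.05, 3 were lower without array 4 and 1 with Agilent's signals.

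Among the other marker lists, 0 of the 10 probes of Kupffer cells and macrophages, 5 of neutrophils and 8 of erythroid cells passed by limma, with 0, 1 and 1 at an unadjusted p under 0.05. Of 16 probes of stellate cells and fibroblasts 4, all of collagen genes, were lower and 0 higher, with Col3a1 at -0.51 ± 0.15 (adjusted p = 0.0116) and Col1a2 at -0.37 ± 0.07 (adjusted p = 0.0119). The list had 8 positive ratios of 16 and a median of -0.03, and without array 2, 0 were lower by limma, with 5 at an unadjusted p under 0.05. The lower probes were of 3 genes. With the mean of the probes of a gene, 1 of 8 genes was lower by limma, with 3 at an unadjusted p under 0.05.

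Per the authors' deposited table, 9 member probes of 8 genes had an adjusted p under 0.05, 2 of them higher and 7 lower. Of 208 member ratios compared with the authors' deposited values, 199 differed by less than 0.05, and the largest difference was 0.0939, at the dimmer Vwf probe on array 1.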

How the data were processed

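Liver RNA of 4 vitamin C-treated Wrn mutants (Cy5) and 4 wild-type mice (Cy3) was measured on 4 two-colour arrays, all on 1 slide with 1 scan time. The deposited scanner files hold median spot intensity and background intensity from Agilent Feature Extraction 10.5.1.1 on a design annotated on mm9, per the file headers, and Agilent's log10 ratio of processed signals. The authors' deposited table gives log2 ratios per array, p-values, adjusted p-values and, as scores, the signed fold change, log odds and moderated statistic. The submitters' processing notes name limma with no version. Those ratios were recovered on each array by subtracting the background and applying loess (slope 1).

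Here, normexp (offset 50) and loess (control spots at weight 0) were applied with limma 3.58.1 in R 4.3.3. Spots flagged as outliers and controls were dropped, and spots were averaged per probe. Probes well above background on 3 arrays in 1 channel, with a value on 3 arrays, were kept, 39083 of 41174. The log2 ratio was tested against 0 with lmFit and eBayes, and p-values were adjusted over all kept probes. Channel levels follow loess and Aquantile. Each ratio pairs the channels of 1 array, so the main test is paired by array. Median intensities were used, and mean foreground intensities were not analysed here. Ratios of array pairs correlated across probes with r from 0.394 to 0.589. The test was also run on simulated ratios with independent normal errors and added changes. That run cannot check dye effects, array effects or the normalization. The number of arrays limits precision.

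The members and lists were chosen with earlier results of these data known. Values per array are given for members past the threshold and for fibrinogen, and the other members by values or ranges. From the other lists, up to 2 genes in each direction are named by smallest p; 1 gene this selects is not reported here. Values per array of F11, Pros1 and Serpinf2 were added after they were seen. Of the 34 members, 27 had a RefSeq promoter (GRCm38.p6). Those without were Plat, Thbd, Plg, Vwf, Plau, Proc and Kng1. Alternatives covered the source of the ratios, background, normalization, filter, moderation, weights, pairing, probes per gene, threshold and each array.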

Additional observations from a re-analysis of the deposited data

Results flagged for a closer look

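At the F3 probe A_52_P683413, array 4 stood far from the others: its log2 ratio was 0.00699, whereas arrays 1 to 3 gave -0.42, -0.41 and -0.40. Its gap to the nearest array made up 0.952 of the range of the 4 values. It was the only 1 of 52 member probes that stood out in this way, and chance gives about 1 in 20. Without array 4 the mean was -0.41 (adjusted p = 0.0280 by limma).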

How the results depend on the processing

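With median centring 19 member probes (16 genes) were higher and 6 lower, and 20 probes of the other lists were higher and 13 lower. It turned the sign of 12 of the 52 member ratios, 2 of them past the threshold as reported. Those past the threshold under either setting were F12 at 0.28, Hrg at 0.25, Serpinf2 at 0.25, Cpb2 at 0.31, Vkorc1 at 0.43 and the dimmer Serpinc1 probe at 0.33. The cause was not tested, and which setting is nearer the true ratio cannot be told without a dye swap. With loess and the mean of the probes of a gene, Serpinc1 was at 0.26, against -0.02 on its dimmer probe. With Agilent's processed signals 1 member probe (1 gene) was higher and 5 lower, and 5 and 9 probes of the other lists. With no replicate block, that is without pairing the channels of an array, 0 member probes and 0 genes were higher and 0 lower by limma, with 3 and 9 at an unadjusted p under 0.05, and 2 and 0 probes of the other lists. At an adjusted p under 0.01, 1 member probe (1 gene) was higher and 1 lower, with 5 and 0 in the other lists, and at 0.1, 13 member probes were lower.

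Leaving out 1 array gave 0 to 2 higher member probes (0 to 2 genes) and 1 to 6 lower ones (1 to 6 genes), and 4 to 7 higher and 0 to 17 lower probes of the other lists. Without array 2, 0 member probes were higher (5 at an unadjusted p under 0.05). Among calls on single probes, F5 was lost in 1, the brighter Serpinc1 probe in 2 and F2 in 4 of 18 alternatives. F9 was lost in 12 of 17 and Plau in 10 of 18. The other settings left the counts of members within 1.5 times those reported. Of the member probes 47 of 52 were well above background in both channels of all arrays, among them 5 of 8 for the inhibitors and 10 of 12 for fibrinolysis.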
